A study of Mus musculus with 2 samples.

Results

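Insulin-like growth factors (IGFs) are small secreted hormones that act through a receptor tyrosine kinase at the cell surface, and most IGF in blood and tissue is held by secreted binding proteins that limit or deliver it. The 8 genes described here are 5 binding proteins (*Igfbp3*, *Igfbp4*, *Igfbp5*, *Igfbp6* and *Igfbp7*) and 3 receptors (*Igf1r*, *Igf2r* and *Insr*), chosen by their symbols out of the 32285 genes counted in each library. In liver, hepatocytes make most of the circulating IGF1, while the cells that line and surround the sinusoids make several of the binding proteins. IGFBP7 is a secreted matrix-associated protein that is abundant in endothelium and binds IGFs weakly, so it is often described as IGFBP-related.

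Both libraries were 3′ single-cell RNA-seq libraries of mouse liver endothelial cells, each from a pool of 3 mice, separated from other non-parenchymal cells with beads against CD146. Mice of the *Maf* LSEC-KO library carried Clec4g-iCre (tg/wt), which is driven by the promoter of a lectin of liver sinusoidal endothelial cells (LSECs), together with floxed alleles of the transcription factor gene *Maf* (fl/fl). Controls were littermates without the recombinase (Clec4g-iCre wt/wt) whose *Maf* alleles were fl/fl or fl/wt, labelled WT. Age and sex of the pooled mice are not given in the sources used here. The control library held 5664 barcodes and 47681895 unique molecular identifiers (UMIs), the *Maf* LSEC-KO library 7091 barcodes and 89872764 UMIs, and 10 barcode sequences occurred in both.

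After filtering, 4961 control and 5423 *Maf* LSEC-KO barcodes remained, of which 225 and 308 were removed as likely doublets. Endothelial-like clusters held 4255 of the remaining 4736 control and 4431 of the remaining 5115 knockout cells, with 11 to 14 of 14 endothelial markers present in at least 50% of the cells of each cluster. The other clusters carried markers of macrophages, neutrophils, B, T and NK cells, dendritic cells, hepatocytes or cholangiocytes. Among them was control cluster 9, 139 barcodes with all 14 endothelial markers, which was set aside because over 50% of its cells had *Arg1*, a hepatocyte marker. LSECs were cells of endothelial-like clusters without a UMI of *Vwf*, a gene of larger vessels. They numbered 4095 in control and 3253 in *Maf* LSEC-KO, with medians of 8393 and 13938 UMIs. Endothelial-like clusters also held small stellate-like and lymphatic-like classes and cells led by *Upk3b* and *Msln*. Such cells without a *Vwf* UMI stayed among the LSECs. A *Vwf* UMI was found in 3.76% of control and 26.6% of *Maf* LSEC-KO endothelial-like cells, so that this gate removed a larger part of the *Maf* LSEC-KO library. Levels are given in CPM, that is UMIs per 1000000 UMIs outside mitochondrial and ribosomal protein genes. *Maf* itself stood at 3473 CPM in control and 123 CPM in *Maf* LSEC-KO LSECs. A knockout cluster of 210 cells kept its *Maf* UMIs and is called the *Maf*-retaining cluster. With 1 library per group no test between groups was possible. The intervals in parentheses are exact 95% intervals (Poisson for levels and ratios, Clopper-Pearson for shares of cells) and cover counting error only. UMIs of a gene that a few cells hold vary more than these intervals show.

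The stretches of DNA upstream of 3 members are shown because *Igfbp4*, *Igfbp5* and *Igfbp7* are the members past 2-fold in LSECs and the protein deleted, c-Maf, is a DNA-binding factor. RefSeq promoter sequences for mouse build GRCm38.p6 were found for 7 of the 8 members. The 250 bases before the start in that source are printed 5′ to 3′ on the strand of the gene. For *Igfbp5* and *Igfbp7* this start differs from that of the gene models whose positions are given below. The *Igfbp5* stretch overlaps its gene model. The *Igfbp4* stretch lies at chr11:99040994-99041243 (plus strand), the *Igfbp5* stretch at chr1:72874866-72875115 (minus strand) and the *Igfbp7* stretch at chr5:77408046-77408295 (minus strand). Capitals mark TATAAA in *Igfbp4* and, in *Igfbp7*, TCAGCA, which is the reverse complement of TGCTGA, the half-site of Maf recognition elements.
Igfbp4: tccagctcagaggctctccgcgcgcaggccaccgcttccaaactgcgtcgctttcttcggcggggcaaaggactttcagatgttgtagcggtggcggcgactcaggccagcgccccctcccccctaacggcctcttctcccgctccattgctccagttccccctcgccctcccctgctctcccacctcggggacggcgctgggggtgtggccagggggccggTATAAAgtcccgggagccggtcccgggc
Igfbp5: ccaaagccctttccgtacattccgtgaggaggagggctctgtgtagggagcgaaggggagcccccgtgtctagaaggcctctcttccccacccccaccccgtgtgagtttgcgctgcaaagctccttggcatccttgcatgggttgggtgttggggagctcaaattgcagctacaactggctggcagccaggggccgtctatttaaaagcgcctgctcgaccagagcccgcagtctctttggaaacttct
Igfbp7: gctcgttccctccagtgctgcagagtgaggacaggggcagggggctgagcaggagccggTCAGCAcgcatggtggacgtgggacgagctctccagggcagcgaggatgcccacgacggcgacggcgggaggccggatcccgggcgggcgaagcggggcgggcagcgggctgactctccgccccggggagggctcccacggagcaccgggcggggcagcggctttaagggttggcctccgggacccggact
TATAAA began 28 bases before the start of *Igfbp4* and was also found upstream of *Igfbp6*. The half-site began 191 bases before the start of *Igfbp7* and was found, on either strand, upstream of no other matched member. In 32851 promoter stretches of the same length, TGCTGA or its reverse complement occurred in 16.1% and TATAAA in 12.4%. TGACTCA, the AP-1-type core on either strand, occurred in 4.46% of stretches and upstream of none of the 7 matched members. The *Igfbp5* stretch held none of the 3 motifs. A match of these letters is a description of the window and does not show binding.

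In LSECs as a whole, the members did not move together. *Igfbp4* and *Igfbp7* were lower in *Maf* LSEC-KO by just over 2-fold, *Igfbp5* was higher by just over 2-fold, *Igf1r* and *Insr* were nearly level, and *Igfbp3*, *Igfbp6* and *Igf2r* were higher from levels under 50 CPM in both libraries. Of the 5 members that reached 50 CPM in either library, 1 was more than 2-fold higher and 2 were more than 2-fold lower. Among all 4511 genes at that level, 8.11% were more than 2-fold higher and 5.59% were more than 2-fold lower. The median log2 ratio of these genes was 0.11, so values relative to the median gene are lower by that amount, and no member changed direction under it.

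**Figure D1:**
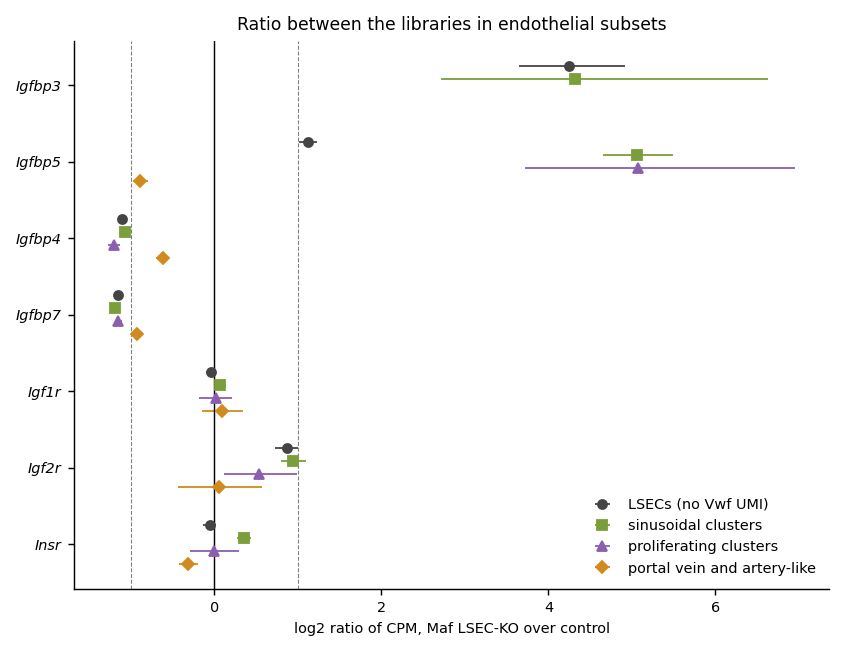
Log2 ratio of *Maf* LSEC-KO over control CPM for each member except *Igfbp6* (vertical axis, genes, and horizontal axis, log2 ratio) in LSECs, sinusoidal clusters, proliferating cells and portal vein and artery-like cells, with exact 95% intervals for counting error and dashed lines at 2-fold. *Igfbp5* lies near 5 in sinusoidal and proliferating cells and below 0 in portal vein and artery-like cells, while *Igfbp4* and *Igfbp7* lie below 0 in all of these cell sets.

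*Igfbp7* (ENSMUSG00000036256, chromosome 5, 77349240 to 77408041, minus strand, GRCm38) measured 3372 CPM (3352 to 3392) in LSECs of the control and 1515 CPM (1503 to 1527) in those of the knockout. The log2 ratio was −1.15 (−1.17 to −1.14), and 4.12% of the genes at 50 CPM or more had a lower ratio. Nearly all cells had a UMI in both libraries, 98.9% in control and 96.5% in *Maf* LSEC-KO. After each cell was thinned to 2700 UMIs the shares were 99.1% and 89.7%, so the gene was detected in fewer cells at equal depth as well.

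*Igfbp7* was lower in each endothelial class that both libraries held in number. In sinusoidal clusters (control clusters 1, 2, 3 and 5 with the pericentral cells, 3808 cells, and *Maf* LSEC-KO clusters 1 and 2, 2719 cells) it went from 3444 to 1511 CPM, a log2 ratio of −1.19 (−1.20 to −1.17). In proliferating cells the ratio was −1.15 (−1.19 to −1.11), in central vein-like cells −0.70 (−0.79 to −0.60) and in portal vein and artery-like cells −0.93 (−0.99 to −0.87). The central vein-like cells were an exception in part, since the sub-cluster with most of their knockout cells (11 control and 73 knockout cells) had a ratio of 0.27 (0.06 to 0.49) and the other shared sub-cluster (38 and 20 cells) one of −1.09 (−1.35 to −0.84). For *Igfbp4* these sub-clusters had −0.02 (−0.39 to 0.38) and −2.39 (−3.22 to −1.67). Control levels were themselves uneven: control cluster 2, led by interferon-response genes, stood at 4094 CPM, control cluster 1 at 3255 CPM, central vein-like cells at 2553 CPM and portal vein and artery-like cells at 2155 CPM, with intervals that do not overlap. Stellate-like cells, only 9 in control and 10 in *Maf* LSEC-KO, had 3657 and 2667 CPM.

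*Igfbp4* (ENSMUSG00000017493, chromosome 11, 99041244 to 99054392, plus strand), a binding protein known mainly as an inhibitor of IGF action that is inactivated by the protease PAPP-A, followed the same direction. Control LSECs had 1199 CPM (1187 to 1211) and knockout LSECs 559 CPM (551 to 566), which is −1.10 (−1.13 to −1.08) on the log2 scale. A UMI was found in 96.1% of control and 90.8% of knockout LSECs, and after thinning in 91.1% and 62.3%. In sinusoidal clusters the ratio was −1.07 (−1.09 to −1.04) and in proliferating cells −1.20 (−1.27 to −1.13). It was smaller in size in central vein-like cells, at −0.76 (−0.93 to −0.58), and in portal vein and artery-like cells, at −0.62 (−0.69 to −0.54). Control portal vein and artery-like cells, at 1190 CPM, were level with control sinusoidal clusters, at 1208 CPM (1196 to 1221). The corresponding *Maf* LSEC-KO cells, at 776 CPM (751 to 801), stood above the *Maf* LSEC-KO sinusoidal clusters, at 577 CPM (569 to 586).

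Within the *Maf* LSEC-KO library both genes were highest in the cells that kept *Maf*. LSECs with 0 *Maf* UMIs (2561 cells) had 528 CPM of *Igfbp4* and 1459 CPM of *Igfbp7*. Those with 1 *Maf* UMI (346 cells) had 538 and 1475 CPM, and those with 2 to 4 (135 cells) had 608 and 1605 CPM. LSECs with 5 or more *Maf* UMIs (211 cells) had 976 CPM (936 to 1017) of *Igfbp4* and 2270 CPM (2208 to 2333) of *Igfbp7*, below control LSECs for both genes. These last cells were shallower than those with none, with medians of 10138 and 13680 UMIs. *Igf1r* had no such order across the same cells, at 118, 132, 137 and 127 CPM.

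**Figure D2:**
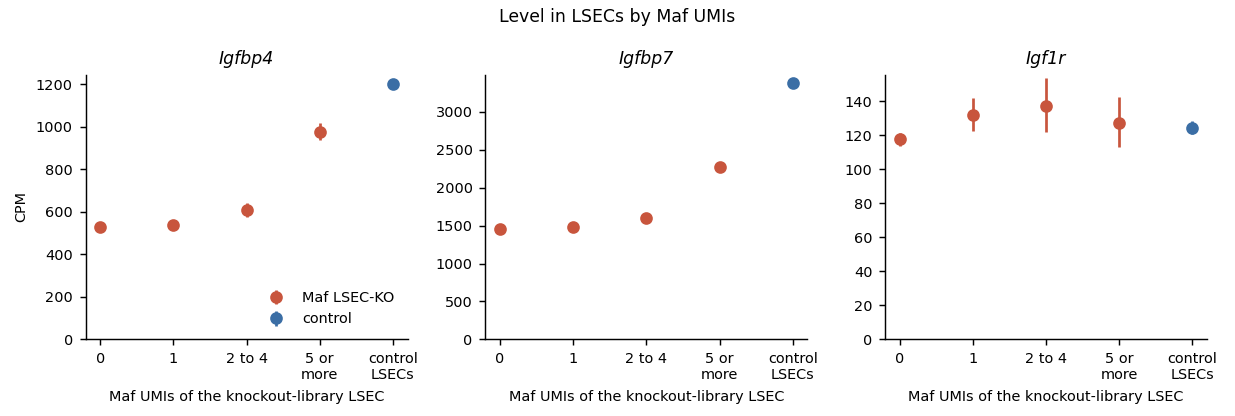
Levels in CPM (vertical axes, from 0) of *Igfbp4*, *Igfbp7* and *Igf1r* in *Maf* LSEC-KO LSECs by their number of *Maf* UMIs (horizontal axis) and, at the right, in control LSECs, with exact 95% Poisson intervals. *Igfbp4* and *Igfbp7* step up in cells with 5 or more *Maf* UMIs, to 976 and 2270 CPM, and *Igf1r* stays between 118 and 137 CPM.

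The *Maf*-retaining cluster itself, set against control sinusoidal clusters, had 1077 CPM of *Igfbp4*, a log2 ratio of −0.17 (−0.23 to −0.10), and 2587 CPM of *Igfbp7*, a ratio of −0.41 (−0.46 to −0.37). None of the 4 members at 50 CPM or more was past 2-fold in that comparison, in which 1.34% of all genes were. *Igfbp5*, under that level, stood at 31.5 CPM against 1.68 CPM in control sinusoidal clusters, or 4.23 (3.65 to 4.81) on the log2 scale. By the number of *Maf* UMIs, knockout LSECs with 0, 1, 2 to 4 and 5 or more had 59.5, 59.6, 85.0 and 159 CPM of *Igfbp5*, so that this gene too was highest in the last of these, and above the 30.6 CPM of control LSECs. The last group held 361 *Igfbp5* UMIs and the *Maf*-retaining cluster only 55, so most of the 361 lay in cells outside that cluster. It also held 43 *Igfbp3* and 38 *Igfbp6* UMIs, against 3 and 0 in the *Maf*-retaining cluster. In the whole library *Igfbp6* lay mainly in cells led by *Upk3b* and *Msln*, which also carried *Igfbp5*. The share of such cells in the 361 UMIs was not tested. Within the cluster the 31.5 CPM was below the 56.1 CPM of the *Maf* LSEC-KO sinusoidal clusters. The number of *Maf* UMIs in a cell was set by the data and the depth of the cell, and how far it reports an intact allele was not tested.

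RNA of *Igfbp4* and *Igfbp7* was also counted in immune cells, where free RNA from lysed cells can enter a droplet. Macrophage-like cells went from 426 to 99.8 CPM for *Igfbp4* and from 1047 to 176 CPM for *Igfbp7*, with log2 ratios of −2.09 (−2.32 to −1.88) and −2.57 (−2.73 to −2.42). B cell-like cells (48 and 39 cells) went from 794 to 161 CPM and from 2002 to 365 CPM. In the control, the CPM of *Igfbp7* over that of *Igfbp4* was 2.81 in LSECs, 2.46 in macrophage-like, 2.52 in B cell-like and 1.49 in T/NK cell-like cells, and neutrophil-like cells had 603 CPM of *Igfbp7* and 201 CPM of *Igfbp4*. Both genes were thus lower in macrophage-like and B cell-like cells of the knockout too, and the part of this free RNA in the LSEC values was not tested.

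*Igfbp5* (ENSMUSG00000026185, chromosome 1, 72857932 to 72874884, minus strand) encodes a binding protein that also attaches to extracellular matrix. The control LSECs together held 997 UMIs, or 30.6 CPM (28.7 to 32.6), and the knockout LSECs 2681 UMIs, or 66.5 CPM (64.0 to 69.0), which is 1.12 (1.01 to 1.22) on the log2 scale. This value lay close to 2-fold and fell to 0.96 with TMM scaling. It fell to 0.76 without a merged cluster of LSECs led by stellate markers, which also carried lymphatic and smooth muscle markers. It averaged over opposite values in different cell classes. Of the 2681 knockout UMIs, 877 lay in sinusoidal clusters and 611 in portal vein and artery-like cells. The others lay in further cells of the LSEC gate, which was not limited to vessel cells. In control, cells of the portal vein and artery-like cluster, 208 of them, held 1538 of the 1740 *Igfbp5* UMIs of all classed cells (88.4%), and 839 of the 997 UMIs of control LSECs came from the 142 such cells without a *Vwf* UMI.

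In the sinusoidal clusters *Igfbp5* was near absent in control and present in a minority of cells in *Maf* LSEC-KO. The control level was 1.68 CPM (1.25 to 2.22), from 50 UMIs in 27 of 3808 cells, and the *Maf* LSEC-KO level was 56.1 CPM (53.5 to 58.7), from 1862 UMIs in 319 of 2719 cells. The ratio was 33.3-fold (25.1 to 45.0), log2 5.06 (4.65 to 5.49), and 99.7% of the genes at 50 CPM or more had a lower ratio. Of the 5 members at that level here, 1 was more than 2-fold higher, against 6.99% of 4451 genes, and 2 were more than 2-fold lower, against 5.82%. With cells that had a *Vwf* UMI left out the levels were 1.71 and 34.8 CPM, a log2 ratio of 4.35 (3.94 to 4.79).

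Sinusoidal cells with an *Igfbp5* UMI made up 0.709% (0.468 to 1.03) of the control library's and 11.7% (10.5 to 13.0) of the knockout's, or 0.263% and 5.59% once cells were thinned to 2700 UMIs. Cells with 5 or more UMIs numbered 2 in control and 83 in *Maf* LSEC-KO, and these 83 cells held 79.5% of the UMIs. The gene was thus carried by a minority of cells at several UMIs each rather than by a low count in many. Both *Maf* LSEC-KO sinusoidal clusters had it, cluster 1 at 97.7 CPM (13.7% of cells) and cluster 2 at 23.2 CPM (9.55% of cells), and the *Maf*-retaining cluster stood at 31.5 CPM with a UMI in 9 of 210 cells. In proliferating cells the level went from 1.92 to 64.6 CPM, a log2 ratio of 5.07 (3.71 to 6.95).

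**Figure D3:**
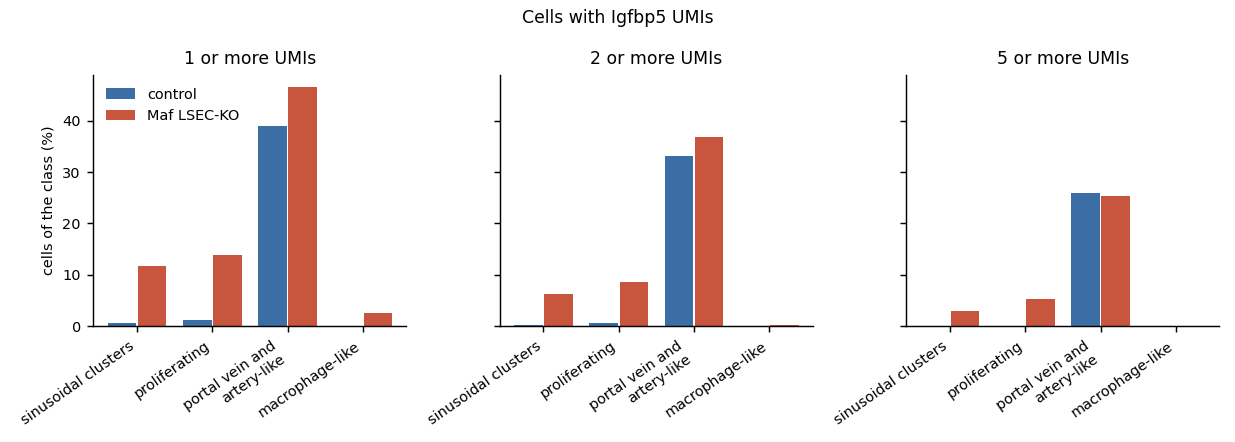
Share of cells in percent (vertical axes) with at least 1, at least 2 and at least 5 *Igfbp5* UMIs (1 panel each) in each library, by cell class (horizontal axes). In sinusoidal clusters the share with a UMI is 0.709% in control and 11.7% in *Maf* LSEC-KO, and in portal vein and artery-like cells it is 38.9% and 46.6%.

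Free RNA was measured in cells that should lack the gene. Macrophage-like cells had an *Igfbp5* UMI in 0 of 224 control cells (a count of 0 here allows up to 1.34%) and in 10 of 394 *Maf* LSEC-KO cells (2.54%; 1.22 to 4.62), none with more than 2 UMIs. Their median depths, 5117 and 4565 UMIs, were below those of the sinusoidal clusters, at 8310.5 and 14101. After thinning, 0.683% of *Maf* LSEC-KO macrophage-like cells had a UMI against 5.59% of sinusoidal cells, and no neutrophil-like cell of either library had one.

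In portal vein and artery-like cells *Igfbp5* was lower in *Maf* LSEC-KO. It measured 879 CPM (836 to 924) in 208 control cells and 476 CPM (456 to 496) in 384 *Maf* LSEC-KO cells, or −0.89 (−0.98 to −0.79) on the log2 scale. After thinning, 28.6% and 29.1% of the cells had a UMI. In the cells without a *Vwf* UMI it went from 812 to 446 CPM, and in those with one from 976 to 487 CPM. The proportion of cells carrying the gene was therefore similar while the level in CPM was lower. Of 6 members at 50 CPM or more in these cells, none was more than 2-fold lower, against 2.92% of 4280 genes. *Igfbp3*, 1 of the 6, was more than 2-fold higher, against 3.15% of genes. Without the knockout cell with most of its UMIs *Igfbp3* stood at 40.5 CPM, under the level needed for this count. These clusters were named from 3 of 11 markers of portal vein and artery in control and 5 in *Maf* LSEC-KO.

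Rare cell types carried *Igfbp5* at high levels. The lymphatic-like cells of the *Maf* LSEC-KO library, 14 of them, had 2768 CPM, with a UMI in 12. Cells led by *Upk3b* and *Msln*, genes known from mesothelium, had 6516 CPM in 10 *Maf* LSEC-KO cells and 1582 CPM in 2 control cells. Central vein-like cells had 0 UMIs in 50 control cells and 403 UMIs in 139 *Maf* LSEC-KO cells, but 350 of these were in 1 cell, and without it the *Maf* LSEC-KO level was 32.2 CPM instead of 240.0. Under other clusterings the class was matched to the cluster that overlapped it most, which also held other cells. With the IGF genes kept, the control match of 508 cells (49 shared with the class) had 21.4 CPM. The knockout match of 186 cells (137 shared) had 1014 CPM. At a resolution of 0.5 the matches were 200 control cells (42 shared) at 73.0 CPM and 148 knockout cells (139 shared) at 234 CPM. These values are therefore not those of central vein-like cells alone. Stellate-like cells had 0 UMIs in control and 1 in *Maf* LSEC-KO.

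*Igfbp3* (ENSMUSG00000020427, chromosome 11, 7206086 to 7213923, minus strand), the main carrier of IGF in blood, had only 23 UMIs in control LSECs and 541 in *Maf* LSEC-KO LSECs, or 0.706 and 13.4 CPM, with a log2 ratio of 4.25 (3.65 to 4.92). Neither level reached 50 CPM. In control, 20 of the 23 UMIs of all classed cells came from the 9 stellate-like cells, which had 150 CPM (91.7 to 232).

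In the *Maf* LSEC-KO library most *Igfbp3* lay in 3 places. Cluster 12, 61 endothelial-like cells led by *Sparcl1*, *Igfbp3*, *Cxcl12*, *Col15a1* and *Rbp7* and left unnamed, had 803 CPM (721 to 891), with a UMI in 38 cells, and held 39.6% of the 897 UMIs of all classed cells. Portal vein and artery-like cells held another 28.3%, at 52.6 CPM (46.3 to 59.5) with a UMI in 31 of 384 cells, and stellate-like cells 14.7%. In control portal vein and artery-like cells there were 0 UMIs in 208 cells (a count of 0 here allows up to 1.44%). The *Maf* LSEC-KO level was 30.7-fold above a limit of 3 UMIs set for the control class. The exact interval of the ratio began at 24.8-fold. Without the cell with most UMIs the levels were 703 CPM in cluster 12 and 40.5 CPM in portal vein and artery-like cells. With the IGF genes kept in the clustering, the cells of cluster 12 fell in a cluster of 446 cells that also held the portal ones, at 117 CPM together. At a clustering resolution of 0.5 the best match to cluster 12, 100 cells of which 60 were shared, had 470 CPM.

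Stellate-like cells had *Igfbp3* in both libraries, 20 UMIs in 9 control cells and 132 UMIs in 10 *Maf* LSEC-KO cells, or 150 and 611 CPM, a log2 ratio of 2.02 (1.34 to 2.78). In so few cells 29.5% of 5165 genes were more than 2-fold apart. In sinusoidal clusters the level was 0.10 CPM (3 UMIs) and 2.02 CPM (67 UMIs), close to the 2.56 CPM of *Maf* LSEC-KO macrophage-like cells.

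*Igfbp6* (ENSMUSG00000023046, chromosome 15, 102144362 to 102149511, plus strand), which prefers IGF2 over IGF1, was hardly an endothelial gene in these data. Its LSEC levels were 6.97 and 10.4 CPM, a log2 ratio of 0.57 (0.34 to 0.81), but the cells led by *Upk3b* and *Msln* held 211 of 233 UMIs in control (90.6%) and 790 of 905 in *Maf* LSEC-KO (87.3%). Their levels were 4224 CPM in 2 control cells and 3323 CPM in 10 *Maf* LSEC-KO cells. Sinusoidal clusters had 7 UMIs in control, or 0.24 CPM. Stellate-like cells had 0 UMIs in control and 68 in *Maf* LSEC-KO, all in 2 of 10 cells, and when stellate cells were instead required to hold at least 9 of 12 markers there were 0 in both libraries.

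**Figure D4:**
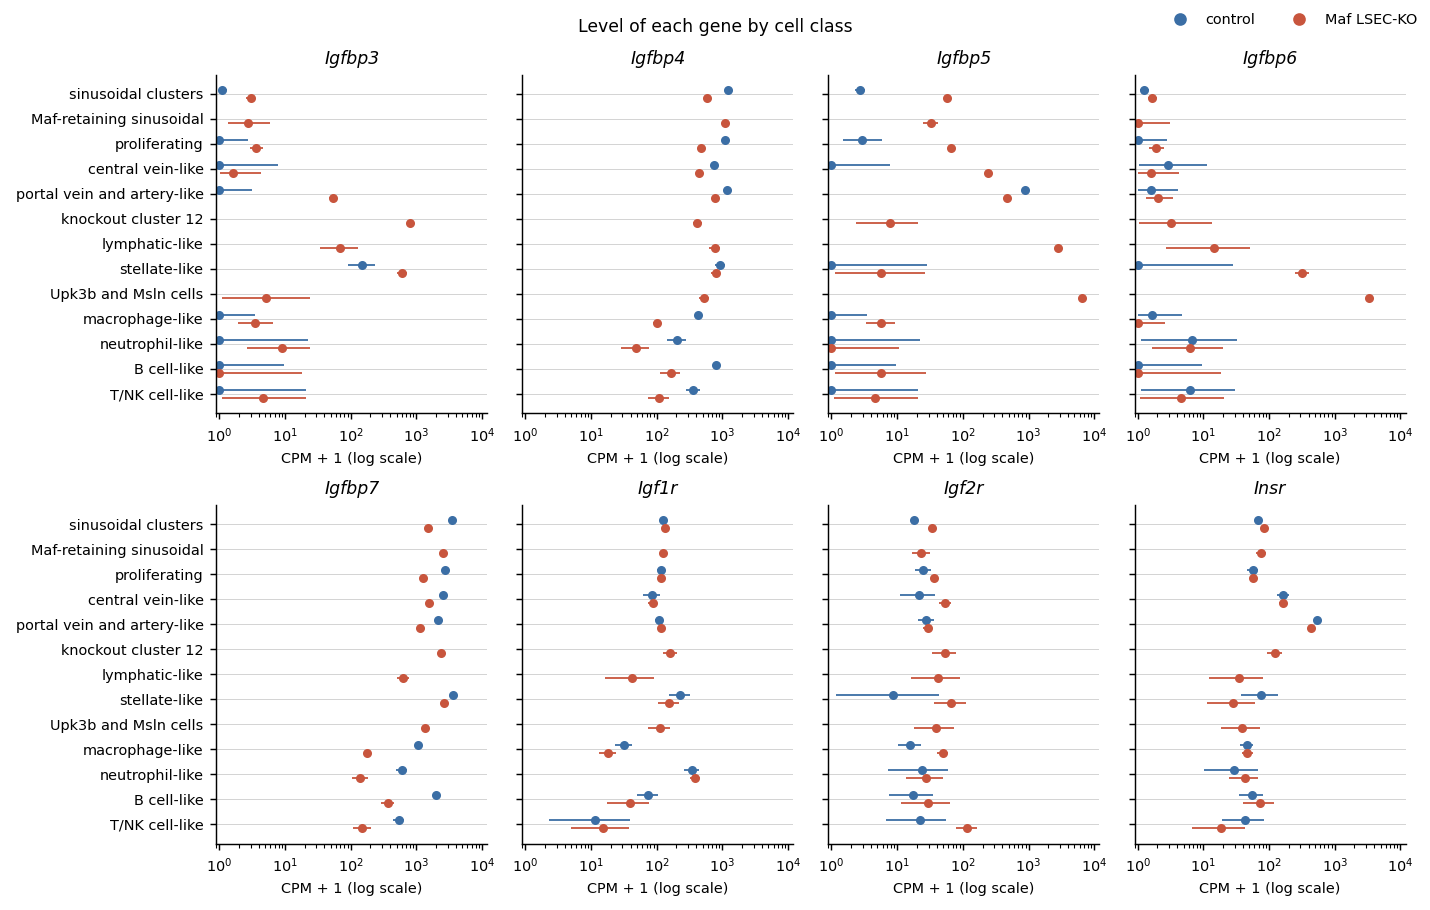
Level of each member (1 panel per gene; log axis of CPM + 1) in each cell class of the control and the *Maf* LSEC-KO library, with exact 95% Poisson intervals, and classes under 5 cells not drawn. *Igfbp4* and *Igfbp7* are high across endothelial classes, *Igfbp5* and *Insr* peak among the larger endothelial classes in portal vein and artery-like cells, and *Igfbp3* peaks in *Maf* LSEC-KO cluster 12.

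The type 1 IGF receptor gene *Igf1r* (ENSMUSG00000005533, chromosome 7, 67952827 to 68233668, plus strand), which encodes the tyrosine kinase that binds IGF1 and IGF2, was nearly level between the libraries. Control LSECs had 124 CPM (121 to 128) and knockout LSECs 121 CPM (118 to 124), and the log2 ratio was −0.04 (−0.10 to 0.02). The ratio was 0.07 (0.01 to 0.13) in sinusoidal clusters, 0.01 (−0.18 to 0.22) in proliferating and 0.09 (−0.15 to 0.34) in portal vein and artery-like cells, where the cells without a *Vwf* UMI had −0.47 (−0.85 to −0.09) and those with one 0.42 (0.05 to 0.81). Differences within each library were larger than that between them. Control cluster 2 had 159 CPM and control cluster 1 had 111 CPM, and *Maf* LSEC-KO cluster 1 had 176 CPM and cluster 2 had 95.5 CPM. Among classes of at least 5 cells the highest levels were those of neutrophil-like cells, 339 CPM (258 to 437) for the control and 384 CPM (324 to 451) for the knockout, while macrophage-like cells had 30.5 and 17.1 CPM.

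The insulin receptor gene *Insr* (ENSMUSG00000005534, chromosome 8, 3122061 to 3279617, minus strand) had higher levels in cells of the larger vessels than in sinusoidal clusters. All control LSECs together had 78.6 CPM (75.5 to 81.7) and all knockout LSECs 75.6 CPM (72.9 to 78.3), for a log2 ratio of −0.06 (−0.13 to 0.02). Control portal vein and artery-like cells had 532 CPM (498 to 567), central vein-like cells 163 CPM (131 to 201), and sinusoidal clusters 66.0 CPM (63.1 to 69.0), 3 levels with separate intervals. The knockout had the same order, at 429 CPM (411 to 448), 160 CPM (142 to 180) and 84.3 CPM (81.2 to 87.5). The portal vein and artery-like cells held 27.9% of the 3336 control *Insr* UMIs, and the more numerous sinusoidal cells held 1960 of them.

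Between the libraries *Insr* was lower in portal vein and artery-like cells, at a log2 ratio of −0.31 (−0.42 to −0.20), and higher in sinusoidal clusters, at 0.35 (0.27 to 0.44). Without cells that had a *Vwf* UMI the sinusoidal ratio was 0.18 (0.08 to 0.27), and the portal ratio was −0.36 (−0.54 to −0.18). Neither reached 2-fold. *Maf* LSEC-KO cluster 1 had 108 CPM and cluster 2 had 65.6 CPM, the same order as for *Igf1r*. The share of portal vein and artery-like cells with a UMI was 82.7% (76.9 to 87.6) and 88.8% (85.2 to 91.8), and after thinning 57.8% and 55.1%.

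*Igf2r* (ENSMUSG00000023830, chromosome 17, 12682406 to 12769664, minus strand) encodes the cation-independent mannose 6-phosphate receptor, which clears IGF2 and sorts lysosomal enzymes. Its LSEC level was 17.9 CPM (16.5 to 19.4) for the control and 32.6 CPM (30.9 to 34.4) for the knockout, or 0.86 (0.72 to 1.01) as a log2 ratio, with a UMI in 3.60% and 6.71% of thinned cells. It was higher in sinusoidal clusters, at 0.94 (0.79 to 1.10), and in proliferating cells, at 0.54 (0.12 to 0.99). Central vein-like cells had 1.38 (0.47 to 2.43). Their sub-clusters described for *Igfbp7* had 1.04 (−0.62 to 3.37) and 1.70 (−0.15 to 3.50), intervals that hold both signs. Portal vein and artery-like cells were level, at 0.06 (−0.43 to 0.57). The difference was not limited to endothelium: macrophage-like cells went from 14.6 to 48.6 CPM, a ratio of 1.74 (1.07 to 2.47), and T/NK cell-like cells from 21.2 CPM (4 UMIs) to 114 CPM (32 UMIs). Central vein-like cells had 2 members past 2-fold higher, *Igf2r* and *Igfbp5*, against 3.18% of 4465 genes, but *Igf2r* alone once the 1 cell with most *Igfbp5* UMIs was left out. *M6pr*, the cation-dependent mannose 6-phosphate receptor, stood at 95.4 and 94.1 CPM in LSECs.

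LSECs were also ordered along the sinusoid by a score of landmark genes and divided into 4 zones, from pericentral (zone 1) to periportal (zone 4). The zones hold every LSEC, among them the 142 control and 119 knockout cells of the portal vein and artery-like clusters without a *Vwf* UMI, which held most of the control *Igfbp5* UMIs, so a zone's level is not that of sinusoidal cells alone. *Insr* was highest in zone 4 of both libraries. It stood at 65.3, 47.4, 63.5 and 151 CPM in zones 1 to 4 of control and at 47.1, 48.7, 82.4 and 152 CPM in *Maf* LSEC-KO. *Igf1r* stood at 107, 122, 123 and 149 CPM in control and 94.4, 118, 131 and 152 CPM in *Maf* LSEC-KO, so that zone 4 was highest and zone 1 lowest in both.

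*Igfbp5* in control was highest in zone 4, at 117 CPM, with 10.4, 3.50 and 6.52 CPM in zones 1 to 3. In *Maf* LSEC-KO it was counted in every zone, at 69.8, 40.6, 58.9 and 114 CPM. Zone 1 also held most *Igfbp6* UMIs of LSECs, 214 of 227 in control and 388 of 418 in *Maf* LSEC-KO. That gene lay mainly in the cells led by *Upk3b* and *Msln*, which carried *Igfbp5* as well. Their part in the zone 1 levels of *Igfbp5* was not tested. *Igfbp7* was lower in *Maf* LSEC-KO in every zone, from 3315, 3513, 3456 and 3155 CPM to 1728, 1536, 1436 and 1270 CPM. *Igfbp4* went from 1173, 1237, 1209 and 1169 CPM to 508, 528, 553 and 691 CPM. The landmark genes were found in each library apart, 28 pericentral and 12 periportal ones in control and 7 and 26 in *Maf* LSEC-KO, so a zone of one library need not match that of the other. With the 4 pericentral starting genes alone, the difference of *Igfbp5* between zones 4 and 1 of *Maf* LSEC-KO turned from 44.4 to −21.8 CPM. That of *Insr* kept its direction in both libraries. Zone 4 was then every LSEC lacking a UMI of those 4 genes, 1318 control and 2456 knockout cells, and was not defined by periportal genes.

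**Figure D5:**
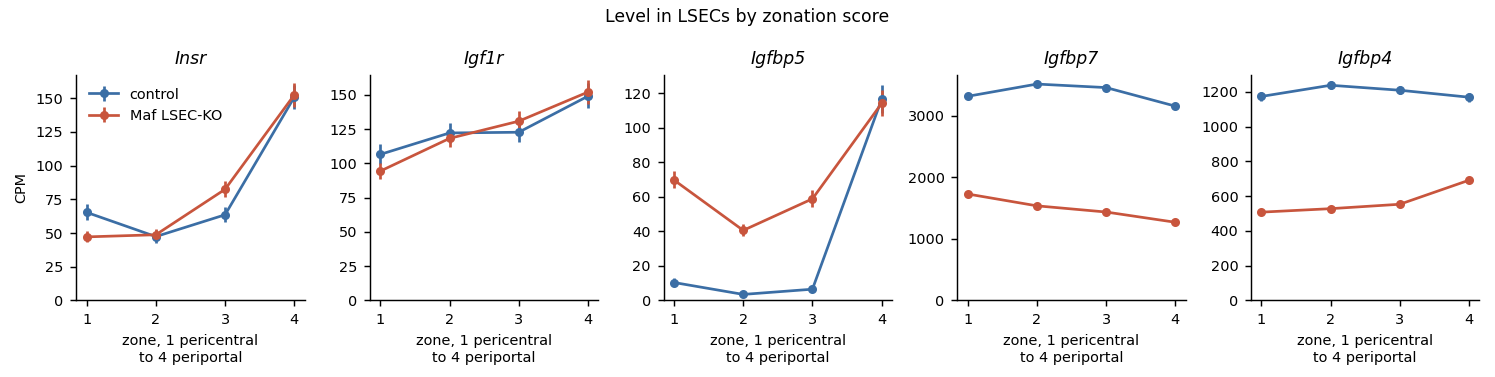
Level in CPM (vertical axes) of *Insr*, *Igf1r*, *Igfbp5*, *Igfbp7* and *Igfbp4* in LSECs of zones 1 (pericentral) to 4 (periportal) (horizontal axis) of each library, with exact 95% Poisson intervals. *Insr* is highest in zone 4 of both libraries, *Igfbp5* is at 10.4 CPM or less in control zones 1 to 3 and at 40.6 CPM or more in every *Maf* LSEC-KO zone, and *Igfbp4* and *Igfbp7* lie lower in *Maf* LSEC-KO in all 4 zones.

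Other genes of the IGF pathway were taken as a list of 48, of which 24 reached 20 CPM in LSECs of either library. Of these, 1 was more than 2-fold higher (*Igf2bp2*) and 1 more than 2-fold lower (*Pik3r1*). Among all 7592 genes at that level 9.18% were more than 2-fold higher and 4.57% more than 2-fold lower. The list had a median log2 ratio of 0.08, and all these genes one of 0.13. *Pik3r1*, the regulatory subunit of PI3 kinase, went from 147 to 60.7 CPM, a log2 ratio of −1.28 (−1.35 to −1.21). *Igf2bp2*, which binds *Igf2* and other mRNAs, went from 9.21 to 29.7 CPM, a ratio of 1.69 (1.50 to 1.87).

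Ligands, the remaining binding proteins and their proteases did not reach 20 CPM in LSECs. *Igf1* stood at 2.86 and 6.52 CPM and *Igf2* at 0.80 and 1.86 CPM. *Pappa*, the protease that cleaves IGFBP4, had 0 UMIs in control and 19 in *Maf* LSEC-KO, and *Stc1*, a stanniocalcin that can inhibit this protease, went from 3.41 to 17.6 CPM. Of the adaptors listed, *Irs1* had 7 and 10 UMIs and *Irs2* 6 and 9, while *Grb2* stood at 103 and 122 CPM and *Grb10* at 61.8 and 55.6 CPM. Downstream, *Akt1* had 119 and 129 CPM and *Foxo1* 139 and 145 CPM. *Rheb*, an activator of mTORC1, went from 109 to 170 CPM and *Eif4ebp1*, a target of mTORC1, from 93.6 to 160 CPM, both short of 2-fold.

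Genes with the most similar pattern were ranked by Pearson's r of log2(CPM + 5) over the 22 classes of both libraries with at least 50 cells, out of 7371 genes, as a description without a test, since classes of one library share its depth and free RNA. For *Igfbp7* these were *Cd300lg* (0.98), *Fam171a1* (0.98) and *Phldb2* (0.98), and for *Igfbp4* *Ttll7* (0.99), *Fam171a1* (0.98) and *Tgfbr3* (0.98). For *Igfbp5* they were *Adgrg6* (0.91), *Lmo7* (0.90) and *Gucy1b1* (0.88), and for *Igfbp3* *Sema3g* (0.97), *Rbp7* (0.95) and *Ablim3* (0.94). For *Insr* the nearest was *Jag1*, the Notch ligand (0.95), followed by *Unc13b* (0.86) and *Tln2* (0.84). *Igf1r* was nearest to *Rnf144a* (0.92), *Csnk1e* (0.90) and *Map4k2* (0.90), and *Igf2r* to *Ttf1* (0.86), *Reps1* (0.84) and *Itpr3* (0.83). *Igfbp6* had at most 5.26 CPM in these classes and was not ranked.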

How the data were processed

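LSECs of control and *Maf* LSEC-KO mice were compared by 3′ single-cell RNA-seq, 1 library per group. The authors deposited raw UMI counts (gene by barcode, not normalized), from Cell Ranger 6.0.2 and the mm10 build per the labels; the lowest barcode held 500 UMIs. Cells needed 1500 UMIs and 750 genes. Scrublet, run in scanpy 1.11.5, scored doublets. Its automatic threshold marked none, so the highest scores were removed at 0.8% per 1000 barcodes. Libraries were clustered one by one (Seurat 5.3.0, R 4.3.3; 16 and 20 principal components, resolution 0.3) without the 56 IGF genes. Endothelial-like clusters had *Pecam1* and at least 7 of 14 endothelial markers in at least 50% of cells. None of *Adgre1*, *Clec4f*, *Ptprc*, *Cd52*, *Acta1* and *Arg1* was in over 50% of their cells. Other classes were named from marker lists. Central vein-like, stellate-like, lymphatic-like and similar small classes came from joint sub-clusters (15 components, 6 neighbours, resolution 1), a step chosen after the clusters were seen.

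UMIs were summed per class, and intervals were computed with SciPy 1.17.1. Where 0 UMIs were counted, 3 were taken as the limit. TMM factors came from edgeR 4.0.16, and LSECs were merged with sctransform 0.4.2. Since counts of 1 library per group have no replicates, no p-value was computed. Ratios past 2-fold were counted among genes that reached 50 CPM in one library or both, or 20 CPM for the list of 48 pathway genes. Zones followed landmark genes correlated positively (pericentral) or negatively (periportal) with pericentral starting genes (4 for the control, 2 for the knockout). The text names all 8 members, *Maf*, the pathway genes past 2-fold with up to 3 others per role, and the 3 genes nearest in pattern to each member that reached 50 CPM. Members and lists were chosen with earlier results of these data known. Positions are those of GENCODE gene models on GRCm38, and promoters are from RefSeq. The scripts were tested on simulated data.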

Additional observations from a re-analysis of the deposited data

Results flagged for a closer look

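The log2 ratio of *Igfbp5* (*Maf* LSEC-KO over control) had opposite signs in different endothelial classes, at 5.06 in sinusoidal clusters and 5.07 in proliferating cells but −0.89 in portal vein and artery-like cells. The ratio of *Insr* likewise was 0.35 in sinusoidal clusters and −0.31 in portal vein and artery-like cells. With 1 library per group the difference between classes was not tested.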

How the results depend on the processing

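No paired analysis was possible because each group is 1 library and the labels carry no replicate numbers. For the same reason no library could be left out. Over 16 alternatives 2 to 3 members were past 2-fold in LSECs, and of the 8 members only *Igf1r* and *Insr*, which were near 0, had ratios of both signs. The log2 ratio ranged from −1.34 to −1.09 for *Igfbp7*, −1.29 to −1.03 for *Igfbp4*, 0.76 to 3.41 for *Igfbp5*, 3.84 to 6.71 for *Igfbp3*, 0.19 to 1.84 for *Igfbp6*, 0.67 to 1.05 for *Igf2r*, −0.23 to 0.05 for *Igf1r* and −0.24 to 0.25 for *Insr*. *Igfbp5* was under 2-fold with CPM over all genes (0.93) and with TMM scaling (0.96). It was also under 2-fold with cells with stellate markers left out (0.89) and with *Maf* LSEC-KO cells with 2 or more *Maf* UMIs left out (0.96). The same held with the merged cluster of stellate, lymphatic and smooth muscle markers left out (0.76). Without portal vein and artery-like cells, an alternative chosen after seeing the data, it was 3.41. The number of genes past 2-fold was 618 at a minimum of 50 CPM (366 higher, 252 lower) and 1044 at 20 CPM (697 higher, 347 lower), which tests more genes. TMM scaling gave 240 higher and 325 lower, so that the higher calls made 42.5% of all calls against 59.2%. With the pericentral starting genes alone, zone 4 minus zone 1 became 22.2 CPM for control *Igfbp6* (from −26.9). It became −13.4 CPM for *Maf* LSEC-KO *Igfbp3* (from 20.4) and −21.8 CPM for *Maf* LSEC-KO *Igfbp5* (from 44.4). Under this setting zone 4 was every LSEC lacking a UMI of any starting gene, 1318 control and 2456 knockout cells. It was therefore not defined by periportal genes. Of the 227 *Igfbp6* UMIs of control LSECs, 172 lay in 1 cell. How far these points account for the changes was not tested. Depth limits *Igfbp3* and *Igfbp6* in control sinusoidal cells, where 3 and 7 UMIs were counted.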
